A study of Homo sapiens with 6 samples.

Results

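The cohesin genes described here are SMC1A, SMC3, RAD21, STAG1, STAG2, PDS5A, PDS5B, WAPL, NIPBL and ESCO2. They were taken by name, as every probe set whose only gene symbol in GEO's platform annotation is one of these 10. All 10 genes were found, with 37 probe sets among the 49293 that are not Affymetrix controls, 2 to 5 for each gene. They stand beside 18132 genes measured in all. RNA came from 786-O, an established human cell line of renal cell carcinoma, and was read on 6 single-channel Affymetrix arrays. In the shNC group, 3 arrays held RNA of cells given a negative control hairpin. In the shERCC6L group, 3 arrays held RNA of cells given a hairpin against ERCC6L, a DNA translocase that coats the threads between sister chromatids in anaphase. Both groups received their hairpins by lentivirus, and the labels name neither the number of hairpins nor the time after infection. They do not say whether arrays of a group came from separate cultures, so the p-values cover the spread among these 6 arrays alone, part or all of which may be technical.

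Cohesin is a ring that holds sister chromatids together from S phase to anaphase and folds interphase chromosomes into loops. SMC1A and SMC3 pair at their hinges, RAD21 closes the ring as its kleisin, and STAG1 or STAG2 binds RAD21. NIPBL, with its partner MAU2, loads the ring and drives loop extrusion. WAPL with PDS5A or PDS5B opens it again, and acetylation of SMC3 by ESCO1 or ESCO2 lets sororin protect the rings that tie sisters. All values below are transcript signals on arrays, which do not measure the amount of protein or of assembled complex.

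ERCC6L, the target, has 1 probe set and was lower in shERCC6L, at 43.0% of the control on the log2(signal + 16) scale (limma adjusted p = 1.61e-07). Array medians lay between 60.04 and 61.56. The log2 ratio of 3' to 5' control probe sets ran from -0.0516 to 0.0187 for ACTB and from -0.0704 to -0.047 for GAPDH, with overlapping groups. Probe sets for ribosomal RNA did differ between the groups: the middle 18S control read 3026 to 3143 in shNC and 1962 to 2204 in shERCC6L, and its part in the results below was not tested. Of 9 measured renal carcinoma markers, PAX8 and VIM among them, 9 reached the median level of all genes, against 1 of 4 blood (HBB), 0 of 4 endothelial and 0 of 3 hepatocyte markers.

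The cohesin genes did not move as a block: SMC1A, STAG1 and WAPL fell, PDS5B and ESCO2 rose, and the other 5 did not pass the test on their brightest probe set. Of the 37 probe sets, 10 were lower and 7 higher in shERCC6L at an adjusted p under 0.05. Over all probe sets 28.7% passed, 11.9% lower and 16.8% higher, and 45.9% of the cohesin probe sets did. Most cohesin probe sets are bright, and among the brighter probe sets, with a mean log2(signal + 16) of 6.27 (the median) or more, tested alone, 53.1% passed (32.6% higher, 20.5% lower), beside 15 of 28 cohesin probe sets (6 higher, 9 lower). The share that passed was therefore near that of all probe sets at or above the median level. No closer match for brightness was made. Counted by gene on the brightest probe set, 3 of 10 were lower and 2 higher, beside 31.6% of all genes passing (13.4% lower, 18.2% higher). All 10 belong to the brighter genes, of which 58.3% passed when tested alone. The arrays of the 2 groups did not overlap for 19 of the 37 cohesin probe sets, beside 41% of all probe sets, nor for 5 of the 10 genes, beside 43.4% of all genes. These shares include dim probe sets and genes, and non-overlap was not counted among the brighter ones alone. The median log2 fold change was -0.003 over the 10 genes and -0.011 over all genes. None of the 37 reached 2-fold. With quantile normalization 10 probe sets were lower and 4 higher, and 28.6% in place of 41.2% of those that passed were higher. Over all probe sets that share went from 58.6% to 55%.

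**Figure D1:**
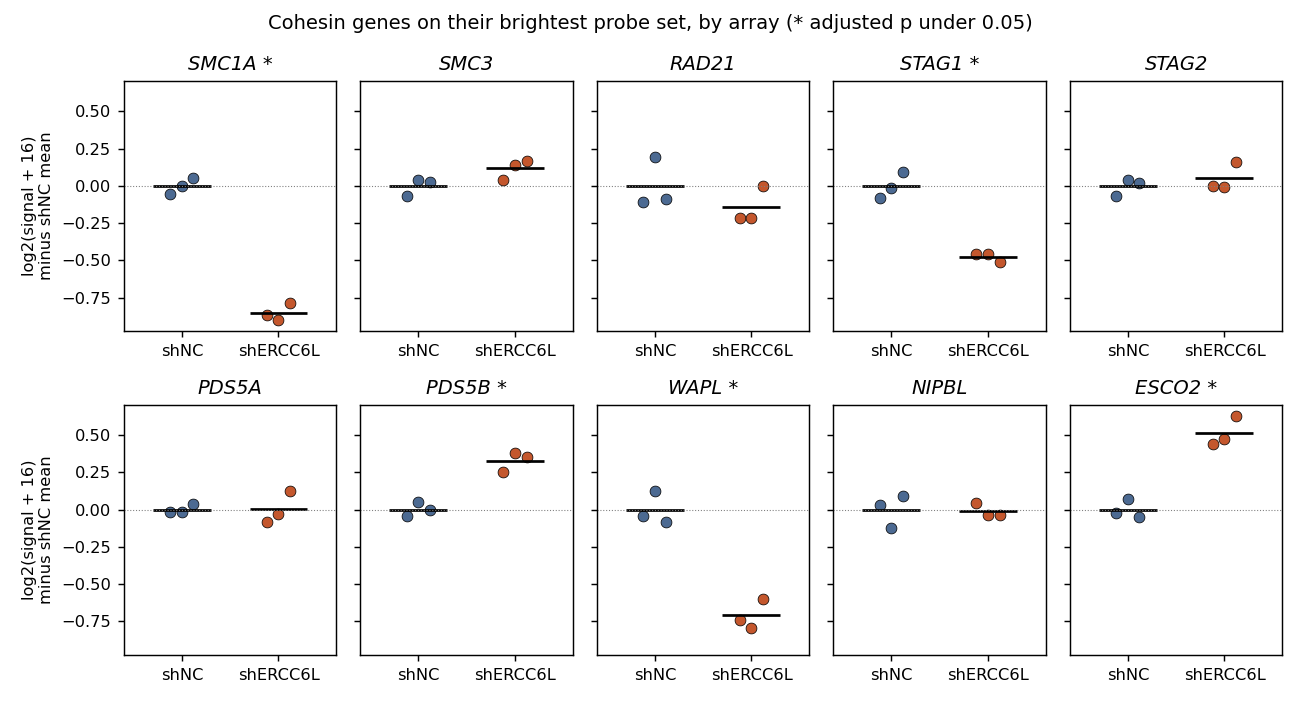
Each panel shows 1 gene on its brightest probe set, as log2(signal + 16) minus the mean of the 3 shNC arrays; points are arrays, bars are group means, and an asterisk marks an adjusted p under 0.05. The groups separate for SMC1A, STAG1, PDS5B, WAPL and ESCO2 and overlap for the other 5 genes.

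The promoters of the genes that fell are shown, with that of PDS5B, which rose, so that the genes that moved can be compared by sequence. Each is the 250 bases before the first listed start of the gene, from RefSeq on GRCh38.p14, which held an entry for 8 of the 10 genes and none for RAD21 or ESCO2. SMC1A is at chrX:53422729-53422978 on the minus strand, STAG1 at chr3:136752379-136752628 on the minus strand, WAPL at chr10:86521793-86522042 on the minus strand and PDS5B at chr13:32586202-32586451 on the plus strand. Capitals mark matches, on either strand, to letters found in many cell cycle promoters: CCAAT, the box bound by NF-Y, TTTCCCGC and TTTGGCGC, which E2F factors can bind, and TTTGAA, a cell cycle homology region.
SMC1A promoter: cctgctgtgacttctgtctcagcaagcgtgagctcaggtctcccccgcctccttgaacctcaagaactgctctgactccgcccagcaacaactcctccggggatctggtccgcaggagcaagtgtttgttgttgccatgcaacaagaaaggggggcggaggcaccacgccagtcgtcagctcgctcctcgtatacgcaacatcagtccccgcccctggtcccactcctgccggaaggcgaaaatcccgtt
STAG1 promoter: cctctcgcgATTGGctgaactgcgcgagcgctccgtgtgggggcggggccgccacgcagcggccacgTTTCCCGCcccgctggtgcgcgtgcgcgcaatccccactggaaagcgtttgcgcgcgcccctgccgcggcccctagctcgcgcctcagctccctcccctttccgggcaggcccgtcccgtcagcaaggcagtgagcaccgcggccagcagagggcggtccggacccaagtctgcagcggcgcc
WAPL promoter: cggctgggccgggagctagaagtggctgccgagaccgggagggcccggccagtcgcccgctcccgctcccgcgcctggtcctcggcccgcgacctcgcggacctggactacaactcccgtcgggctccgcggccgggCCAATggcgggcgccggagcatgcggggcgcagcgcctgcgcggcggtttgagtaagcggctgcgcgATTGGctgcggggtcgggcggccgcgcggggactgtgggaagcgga
PDS5B promoter: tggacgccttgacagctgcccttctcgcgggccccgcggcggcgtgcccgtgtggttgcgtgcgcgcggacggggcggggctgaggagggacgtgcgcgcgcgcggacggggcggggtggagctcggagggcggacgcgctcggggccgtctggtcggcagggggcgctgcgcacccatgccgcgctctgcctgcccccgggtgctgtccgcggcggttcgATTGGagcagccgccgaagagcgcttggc

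The WAPL window holds 2 CCAAT matches, the STAG1 window 1 CCAAT and 1 TTTCCCGC, the PDS5B window 1 CCAAT and the SMC1A window 0 matches. CCAAT stood in 33% of 27305 promoter windows of this length and in 5 of the 8 cohesin windows: STAG2 and PDS5A, which did not pass on their brightest probe sets, also hold it. TTTCCCGC stood in 1.42% of all windows and in STAG1 alone of the 8, TTTGGCGC in 0.553% and in NIPBL alone, and TTTGAA in 13.6% and in SMC3 alone. A match of letters is a description of the window and not a binding site.

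Of the ring itself, the SMC1A transcript fell while SMC3 and RAD21 did not pass. SMC1A encodes the X-linked ATPase subunit of the ring. Its brightest probe set, 11718879_s_at, gave signals of 566.2, 588.4 and 611.5 in shNC, against 315.2, 308.2 and 334.6 in shERCC6L. Every shERCC6L array lay far below every control array. On the log2 scale the change came to -0.85 ± 0.04 (SE, n = 3 per group; adjusted p = 3.36e-06), or 1.80-fold lower, and 97 of the 18132 genes had a fold change this low or lower. Probe set 11752632_a_at went from 250.6, 235 and 239.2 to 162.1, 164.2 and 189.1, a log2 fold change of -0.46 ± 0.06 (adjusted p = 4.07e-04). Probe set 11718877_a_at went from a mean of 73.43 to 47.33, at -0.50 ± 0.05 (adjusted p = 9.84e-05), or -0.30 with a pseudocount of 64. Both again separated the groups. The other SMC1A probe sets, with means near 43 and 19, were at -0.02 and 0.00 and did not pass. Averaged over its 5 probe sets SMC1A was at -0.36 ± 0.03 and still passed.

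SMC3 encodes the other ATPase arm, the one acetylated in S phase. Its 3 probe sets were at 0.12, 0.03 and -0.02, and 0 passed in limma (1 at an unadjusted p under 0.05). The brightest, 11725679_at, read 758.9, 822.4 and 813.5 in shNC and 822.4, 882.6 and 897.3 in shERCC6L, so that the lowest shERCC6L array met the highest control. Its 95% interval for the log2 fold change, not adjusted for the number of tests, was 0.01 to 0.22 (adjusted p = 0.0985). As a gene it passed without shERCC6L replicate 1, at 0.15 (adjusted p = 0.0375), and with an intensity trend and robust estimation, at 0.12 (adjusted p = 0.0435), so that 6 of the 10 genes did in each. RAD21 encodes the subunit that separase cuts at anaphase. All 4 RAD21 probe sets had negative values, from -0.14 to -0.05, and 0 passed in limma (0 at an unadjusted p under 0.05). The brightest, 11754303_s_at, read 2766, 3415 and 2813 in shNC and 2564, 2573 and 2980 in shERCC6L. Here shNC replicate 2 was the high array, and shERCC6L replicate 3 lay above the remaining controls. The interval of the log2 fold change was -0.34 to 0.06, and without shNC replicate 2 the value was -0.05.

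Of the STAG paralogs, of which a ring carries either, STAG1 fell on 2 of its 3 probe sets and STAG2 fell on 0 of its 4. The brightest STAG1 probe set, 11759484_s_at, read 221.4, 233.1 and 252 in shNC and 167, 167.3 and 160.4 in shERCC6L, without overlap. On the log2 scale the change came to -0.47 ± 0.05 (SE, n = 3 per group; adjusted p = 1.28e-04), or 1.39-fold lower. The next, 11743276_s_at, went from 154.5, 151 and 165 to 130, 122.7 and 112.5, at -0.33 ± 0.05 (adjusted p = 0.00178). Probe set 11752130_a_at, the dimmest, was at -0.16, with an adjusted p of 0.0685. It passed without shERCC6L replicate 3, at -0.21 (adjusted p = 0.0098), with a replicate block (adjusted p = 0.0257) and with array weights (adjusted p = 0.0293). In 11 of 14 alternatives it did not pass.

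STAG2, the X-linked paralog, is mutated in several cancers and is the more abundant form in many cell types. Its brightest probe set, 11731108_s_at, read 819.2, 883 and 871.4 in shNC and 858.7, 851.7 and 961.9 in shERCC6L, with an interval of -0.07 to 0.17. Of its 4 probe sets 1, 11739903_a_at, passed as higher, at 0.15 ± 0.04 (adjusted p = 0.0331), and the other 3 were each at 0.05. That call was lost under several alternatives, among them quantile normalization (0.12, adjusted p = 0.0893), and without shNC replicates 1 or 3 or shERCC6L replicates 1 or 3 (adjusted p = 0.11, 0.0883, 0.1 and 0.0904).

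The PDS5 paralogs are scaffolds that support both release of the ring and its protection. Each had 2 of 4 probe sets higher, and only PDS5B passed on its brightest. PDS5B rose on its brightest probe set, 11730905_a_at, from 218.5, 233.8 and 224.9 to 271.6, 297.9 and 292. On the log2 scale the change came to 0.33 ± 0.04 (SE, n = 3 per group; adjusted p = 6.46e-04), or 1.25-fold, and all shERCC6L arrays lay above all controls. A dimmer probe set, 11730906_at, rose from a mean of 35.47 to 44.94, at 0.24 ± 0.04 (adjusted p = 0.00194), or 0.13 with a pseudocount of 64. The remaining PDS5B probe sets lay below the lower quartile on all 6 arrays and did not pass, at 0.09 and 0.03. With them averaged in, PDS5B was at 0.17 ± 0.03 and still passed.

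PDS5A did not pass on its brightest probe set, which read 442, 441.1 and 458.3 in shNC and 420.5, 438.2 and 489.2 in shERCC6L, with an interval of -0.12 to 0.13. Of its other probe sets 11717183_a_at was higher by 0.15 ± 0.04 (adjusted p = 0.0203) and 11737960_a_at by 0.12 ± 0.04 (adjusted p = 0.0408), while 11726842_a_at, at 0.09, did not pass. Neither call held throughout. The first was lost without shNC replicate 2 (adjusted p = 0.062) and without shERCC6L replicates 1 or 3 (0.057 and 0.0571). The second was lost without any shNC replicate (0.0536 to 0.134) and without shERCC6L replicates 2 or 3 (0.121 and 0.105). Both missed with quantile normalization. Averaged over its 4 probe sets PDS5A was at 0.09 ± 0.03 and narrowly did not pass (limma adjusted p = 0.0503).

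WAPL, the release factor that takes rings off chromatin, was the 1 gene of the 10 whose probe sets all passed the test: 5 of 5 fell. Its brightest, 11730899_s_at, read 452.1, 511 and 440.7 in shNC and 273.5, 262.7 and 303.4 in shERCC6L, a log2 fold change of -0.71 ± 0.07 (SE, n = 3 per group; adjusted p = 8.86e-05), or 1.64-fold lower. The smallest p-value was that of 11730898_a_at, with 351.3, 340.3 and 350.1 against 236.3, 239.7 and 238.7, at -0.51 ± 0.03 (adjusted p = 9.13e-06). No shERCC6L array reached a control array on either. The other 3, 11730897_a_at, 11750329_x_at and 11750328_s_at, were at -0.47, -0.48 and -0.43 with adjusted p-values of 0.00127 or less. By Affymetrix naming the suffixes _s_at and _x_at mark probe sets that may also match other transcripts. Of the WAPL probe sets 3 carry one of them, as do the brightest of SMC1A and both of STAG1 that passed.

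NIPBL, the loader whose loss of 1 copy causes Cornelia de Lange syndrome, gave readings that depended on the probe set. On the brightest, 11730270_a_at, shNC read 346.4, 309.5 and 363 and shERCC6L 350.1, 329.4 and 330.5, at -0.01 ± 0.06, with an interval of -0.14 to 0.12. On 11730269_at shNC read 256.2, 268.8 and 266.4 and shERCC6L 337.4, 360.8 and 352.7, at 0.39 ± 0.04 (adjusted p = 1.09e-04), without overlap. The dimmest, 11730268_a_at, was at 0.04 and did not pass. The log2 difference 11730269_at minus 11730270_a_at, a pair chosen after its values were seen and therefore not tested, was -0.41, -0.19 and -0.42 in shNC, against -0.05, 0.13 and 0.09 in shERCC6L. Averaged over probe sets NIPBL was at 0.14 ± 0.03 and passed (adjusted p = 0.00647), so its call rests on how probe sets are combined. The positions of these probe sets in the transcripts were not analysed here.

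ESCO2, the acetyltransferase of S phase that makes rings cohesive, rose. Its main probe set, 11727968_at, read 222.9, 238.8 and 218 in shNC and 313.2, 320.2 and 358.5 in shERCC6L, with every shERCC6L array above every control. On the log2 scale the change came to 0.51 ± 0.06 (SE, n = 3 per group; adjusted p = 1.96e-04), or 1.43-fold, and 231 of all genes rose by as much or more. Its other probe set, below the lower quartile on all 6 arrays, was at -0.04 and did not pass, and the average of both was 0.24 ± 0.04. ESCO2 is expressed in S phase, and in bulk RNA a larger share of cells in a phase and more RNA per cell cannot be told apart. Of 15 S phase genes 9 were higher and 1 lower (median log2 fold change 0.175), beside 18.2% and 13.4% of all genes. RRM2 and FEN1, the 2 with the smallest p, rose by 0.38 and 0.36. TYMS, named after its value was seen, was the lower one, at -0.23. On their brightest probe sets MCM2, MCM3, MCM4, PCNA and RRM1 did not pass, at -0.01 to 0.07. With probe sets averaged MCM4 passed, at 0.21 (adjusted p = 0.00143), with 4 of its 5 probe sets higher. Of the 2 PCNA probe sets 1 was lower. On brightest probe sets all 13 measured mitosis genes were higher (median 0.329), BIRC5 and AURKA, with the smallest p, by 0.66 and 0.57. With probe sets averaged BIRC5 was at 0.41, with 9 of its 12 probe sets higher. MKI67, named after its value was seen, had only 1 of 6 probe sets higher. Its average was 0.14 and passed (limma adjusted p = 0.00217). In the fit that gave these list counts 2971 of the 9066 brighter genes were higher, and 36.3% were when the brighter genes were tested alone. The part of the S phase and mitosis genes in the ESCO2 value was not tested.

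**Figure D2:**
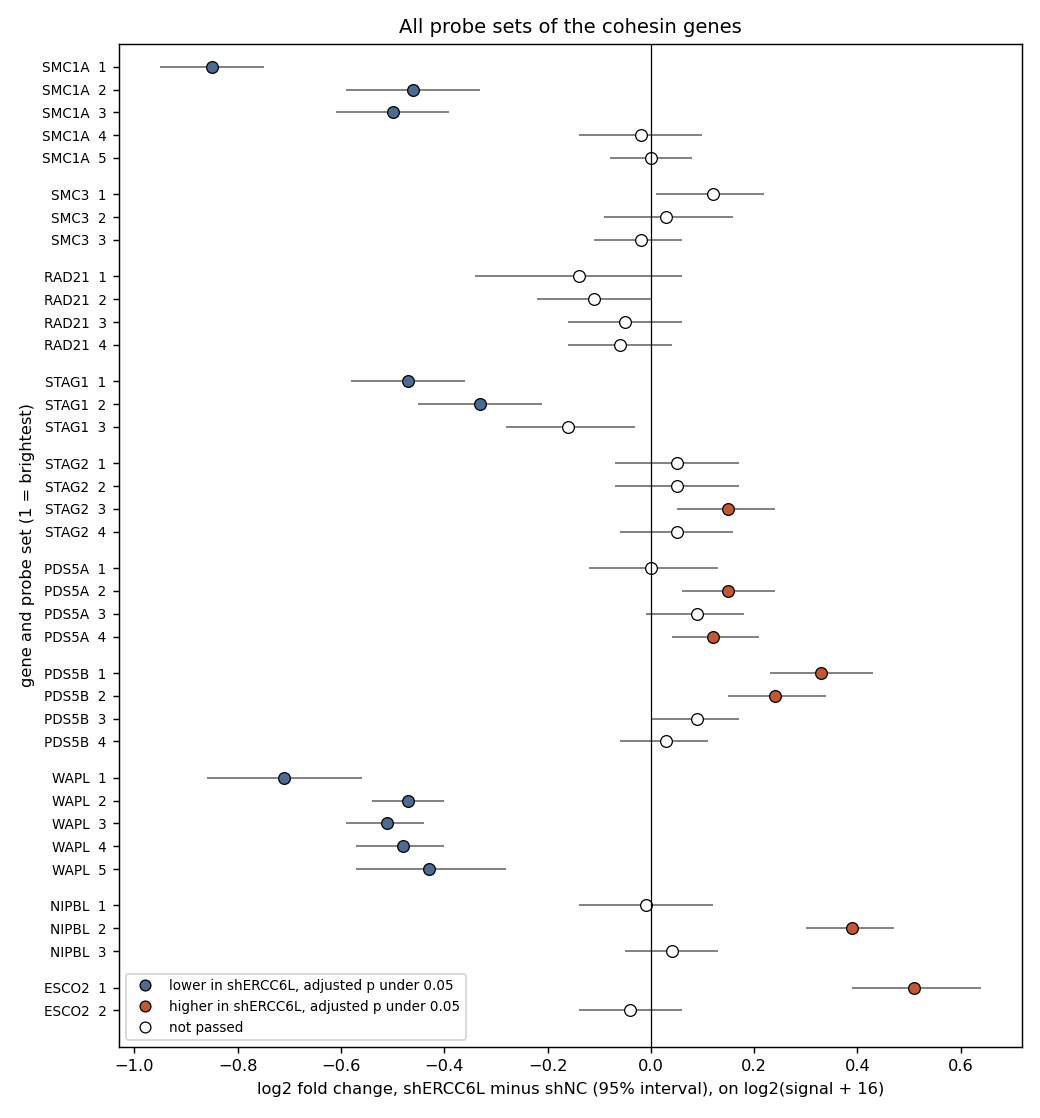
The log2 fold change (shERCC6L minus shNC, on log2(signal + 16)) of each of the 37 probe sets is plotted with its 95% interval, by gene and from the brightest down; filled points passed at an adjusted p under 0.05. All 5 WAPL points lie between -0.71 and -0.43, whereas NIPBL has 1 point at 0.39 and its others near 0.

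To set partner genes side by side, the log2 difference between 4 pairs was taken on each array. The exact permutation test over 6 arrays cannot go below 0.1 (2-sided), and all 4 pairs reached that smallest p-value (0.1, also adjusted over the 4 pairs), so none passes 0.05. On brightest probe sets SMC3 minus SMC1A was 0.41, 0.47 and 0.40 in shNC and 1.34, 1.47 and 1.38 in shERCC6L, a shift of 0.97. With all probe sets of each gene averaged the shift was 0.41, and the groups again did not overlap. STAG2 minus STAG1 was 1.81, 1.85 and 1.73 in shNC and 2.26, 2.24 and 2.47 in shERCC6L, a shift of 0.53, or 0.39 with averaging. NIPBL minus WAPL, loader against release factor, shifted by 0.70 on brightest probe sets and by 0.66 with averaging, higher on every shERCC6L array in both. PDS5B minus PDS5A shifted by 0.32, from -0.97, -0.87 and -0.98 to -0.60, -0.53 and -0.71, but by only 0.08 with averaging. On brightest probe sets each pair sets a gene that passed alone against one that did not, and the shifts are given as descriptions.

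**Figure D3:**
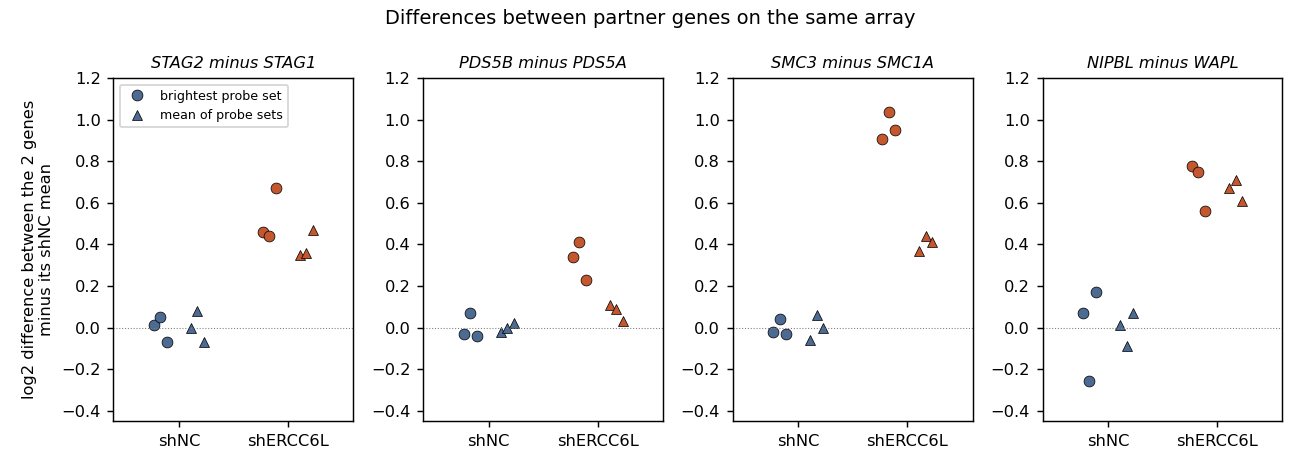
For 4 pairs of partner genes the log2 difference on each array is drawn relative to its shNC mean, with circles for brightest probe sets and triangles for the mean of all probe sets of a gene. All shERCC6L points lie above all shNC points in each pair, by the least in PDS5B minus PDS5A with averaged probe sets.

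Genes that act on cohesin were read from a list of 16, of which 15 were measured, on brightest probe sets. Of these 7 were higher and 4 lower (median log2 fold change 0.125), beside 18.2% higher and 13.4% lower among all genes. When the brighter genes were tested alone, 8 of the 15 were higher and 4 lower, beside 36.3% and 22% of those genes. CDCA5, which encodes sororin, the protector that ESCO2 prepares the ring for, rose by 0.36 ± 0.04 (SE, adjusted p = 1.31e-04) on its brightest probe set. Both CDCA5 probe sets passed as higher. SGO1, the shugoshin that guards centromeric cohesin until anaphase, rose by 0.24 (0.14 averaged, with 1 of 3 probe sets higher), and HASPIN, the histone kinase that marks those centromeres, by 0.34. ESPL1, the separase that cuts RAD21, rose by 0.21, but was at 0.06 and did not pass with probe sets averaged. Of the replication fork factors that help build cohesion, CHTF18 rose by 0.46 (0.21 averaged), DSCC1 by 0.14 (0.24 averaged) and TIPIN by 0.15.

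On the lower side was MAU2, the partner of NIPBL, at -0.16 ± 0.04 (adjusted p = 0.00908), with 2 of its 3 probe sets lower. CHTF8, which joins CHTF18 and DSCC1 in an alternative clamp loader, fell by 0.46 ± 0.03 (adjusted p = 1.43e-05), opposite in sign to those partners. The helicase gene DDX11 fell by 0.22 (-0.09 averaged), and CTCF, whose protein stops loop extrusion at its sites, by 0.11. The calls of CTCF, DSCC1 and TIPIN did not hold in 7 of 16 alternatives each. CTCF missed without shNC replicates 2 or 3 or shERCC6L replicates 1 or 2 (adjusted p = 0.0955, 0.0795, 0.077 and 0.0985). DSCC1 missed without any shNC replicate or shERCC6L replicates 1 or 2 (0.0566 to 0.133). TIPIN missed without shNC replicates 1 or 2 or any shERCC6L replicate (0.057 to 0.0875). ESCO1, WDHD1, TIMELESS and HDAC8, the SMC3 deacetylase, did not pass, at 0.12, 0.12, -0.09 and -0.04, although 3 of 8 HDAC8 probe sets were higher. With probe sets averaged WDHD1 passed, at 0.18 (adjusted p = 0.00518), and HDAC8 passed with its sign turned, at 0.10 (adjusted p = 0.016). Of the germline cohesin genes STAG3, SMC1B, REC8 and RAD21L1, 0 of 4 passed in limma (1, REC8, at an unadjusted p under 0.05), and all 4 were dimmer than the median gene.

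Other SMC complexes were read in the same way. Among 15 genes of condensin, SMC5-SMC6 and the related SMCHD1, 7 were higher and 2 lower (median 0.098), beside 18.2% and 13.4% of all genes. When the brighter genes were tested alone, 8 of the 15 were higher and 2 lower, beside 36.3% and 22% of those genes. NCAPD2, a HEAT-repeat subunit of condensin I, fell by 0.84 ± 0.04 (adjusted p = 5.53e-07) on its brightest probe set, a fall close in size to that of SMC1A. Both NCAPD2 probe sets passed as lower. NSMCE2, a SUMO ligase of the SMC5-SMC6 complex, fell by 0.26. Higher were SMC2, NCAPH, NCAPH2, NCAPG, NCAPG2, NSMCE4A and SMCHD1, by 0.14 to 0.21. NCAPH did not pass with probe sets averaged (0.09), while SMCHD1 and NCAPG2 were then at 0.34 and 0.26. Only 4 were higher with quantile normalization, with a pseudocount of 1, or without shNC replicate 1, shNC replicate 3 or shERCC6L replicate 3, since NCAPG, NCAPG2 and SMCHD1 lay near the threshold. SMC4, SMC5, SMC6, NCAPD3, NSMCE1 and NSMCE3 did not pass, at -0.03 to 0.10, but SMC5 and SMC6 passed with probe sets averaged, at 0.14 (adjusted p = 0.00422) and 0.15 (adjusted p = 0.00683).

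**Figure D4:**
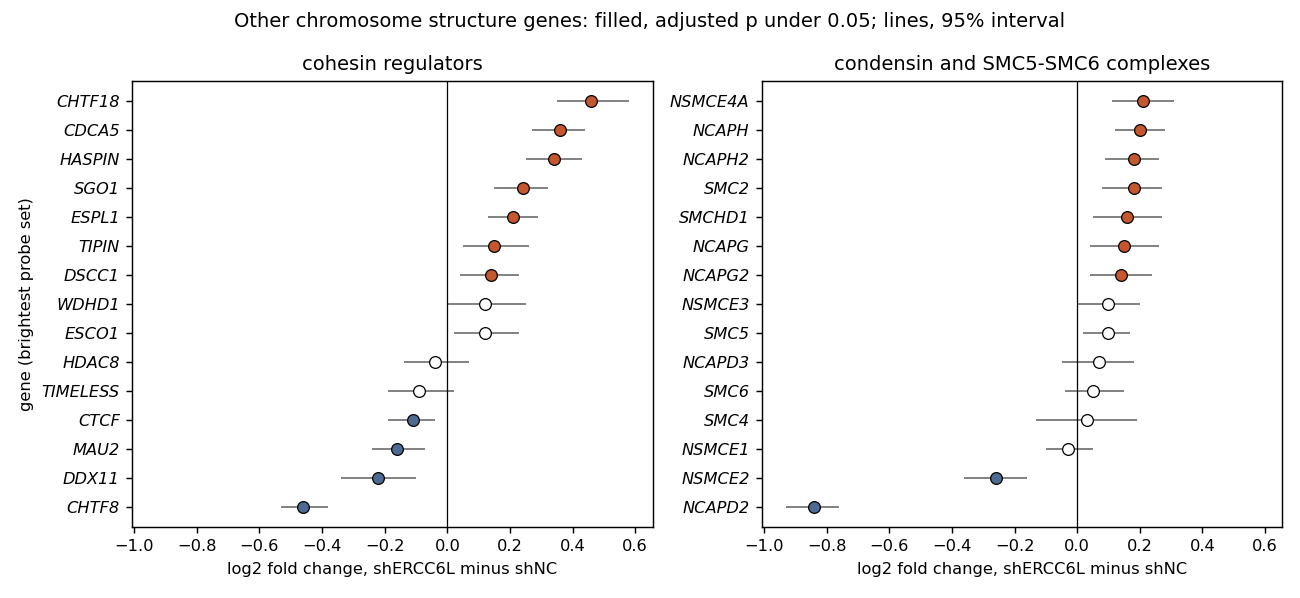
Log2 fold changes (shERCC6L minus shNC) with 95% intervals on brightest probe sets for 15 cohesin regulators and 15 genes of condensin, SMC5-SMC6 and SMCHD1; filled points passed at an adjusted p under 0.05. CHTF8 at -0.46 and NCAPD2 at -0.84 lie farthest to the left of their panels.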

How the data were processed

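The deposited table gives linear probe set intensities, made in Affymetrix Expression Console per the submitters' processing notes; how it corrected and summarized them, and in which version, is not stated in any source used here. Of 49395 probe sets, 102 Affymetrix controls were left out. GEO's platform annotation gave 44988 of the rest 1 gene symbol, 1832 several and 2473 none; 44961 matched RefSeq (GRCh38.p14) by gene number, which changed no symbol. No pair of arrays was identical.

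Intensities were taken as log2(signal + 16), which understates changes of dim probe sets, and fitted with limma 3.58.1 in R 4.3.3 (lmFit, eBayes, 2-sided, no block or filter; 4 residual degrees of freedom). P-values were adjusted by Benjamini-Hochberg over 49293 probe sets; those printed for probe sets of cohesin genes come from this fit. Counts of genes and values of other genes come from a second fit on each gene's brightest probe set (18132 genes). The fit was tested on simulated data, with independent noise drawn from its own fitted spread. Such data cannot show how the fit handles technical spread shared among arrays. Precision is limited by having 3 arrays a group.

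The 10 genes, the lists and the alternatives were chosen with earlier results of these data known. Named were all 10 genes, ERCC6L, members of the cohesin regulator and condensin lists that passed, and the 2 S phase and 2 mitosis genes with the smallest p; list members that did not pass were added afterwards. Pair differences were tested by exact permutation in scipy 1.17.1. Promoters were searched in Python 3.11.15.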

Additional observations from a re-analysis of the deposited data

How the results depend on the processing

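The 16 alternatives were chosen with earlier results of these data known. Of these 1, genes or probe sets at or above the median level, was added after the present results were seen. None of the 16 ended the calls of SMC1A, STAG1, WAPL, PDS5B or ESCO2 on their brightest probe sets, nor changed their direction. Of the 17 probe sets that passed, 14 did so in every alternative run on them; the exceptions were 1 of STAG2 and 2 of PDS5A. The count of cohesin probe sets passing as higher was 4 with quantile normalization, 4 with a pseudocount of 1 and 4 to 6 when 1 array was left out, the lowest without shERCC6L replicate 3, while 10 or 11 passed as lower in these settings. NIPBL turned from -0.01 to 0.14 with probe sets averaged, by construction of the average. With averaging the pair shifts were 0.39 for STAG2 minus STAG1, 0.08 for PDS5B minus PDS5A and 0.41 for SMC3 minus SMC1A, and the last was 0.88 with a pseudocount of 64. Values that passed in neither setting changed sign 27 times, at sizes of 0.06 or less.

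Replicate numbers are shared between groups, but deviations of same-numbered arrays from their group means correlated at 0.22, -0.15 and -0.03, so the arrays were not treated as pairs. With a replicate block 17 cohesin probe sets passed, 6 higher and 11 lower, and SMC3 passed as a gene (0.12, adjusted p = 0.0424), so that 6 genes did. Without detection calls in the table, dim signals could not be set against background.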
